A study of Mus musculus with 2 samples.

Results

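The Meis and Pbx genes encode homeodomain transcription factors of the TALE class, named for a loop of 3 extra amino acids in the homeodomain. Meis proteins (Meis1, Meis2, Meis3) and Pbx proteins (here Pbx2 and Pbx3) pair with each other and with Hox and other factors on composite DNA sites, and Meis1 and Meis2 are known for their expression in the embryonic forebrain. The 5 genes were taken by name, and their candidate enhancers were the p300 peaks whose midpoint lay inside the gene body or within 500 kb of the transcription start site. These windows held 25 of the 6629 peaks of the deposited list.

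The peaks come from 1 chromatin immunoprecipitation (ChIP-seq) library, made with an antibody to the co-activator p300, which is recruited to active enhancers. Swiss Webster embryos at E14.5 gave the tissue, the dorsal cerebral wall without its medial structures, hem, hippocampus and choroid plexus, fixed in formaldehyde with no other treatment in the labels, and the input control was chromatin of the same sample. There was no replicate of either library, and the input was not analysed here. The list gives the position of each peak on mm9 and no score, so the depth behind a peak is unknown, weaker binding is not listed, and neither the expression of a gene nor its use of a nearby peak was measured.

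By the same window rule, genes that mark the dorsal cortex had more peaks than genes that mark the ventral telencephalon. Emx1, Eomes, Tbr1, Neurod2 and Neurod6 had 10, 7, 7, 10 and 13 peaks, and 3 of the 5 passed the test of the window count used for all genes, which 4.09% of coding genes pass. Nkx2-1, Lhx6, Dlx5 and Lhx8 had 1, 3, 2 and 2, and 0 of 4 passed (smallest unadjusted p = 0.479, one-sided exact binomial test), a count that says little of these genes when so few of all genes pass.

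Sequences from the peaks that carry the results are shown first. In each, capitals mark the words TGACAG (the Meis core), TGATTGAC (a Pbx-Meis composite) and TGATTNAT (a Pbx-Hox composite) on either strand, and lower case the rest. For each gene with a peak, the middle 120 bases of the peak nearest its start site are given along the strand of the gene, from the NCBIM37 (mm9) assembly.
Meis2 peak 3531, chr2:115881659-115881778, minus strand: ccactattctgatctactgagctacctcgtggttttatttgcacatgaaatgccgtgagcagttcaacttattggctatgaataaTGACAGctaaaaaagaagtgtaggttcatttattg
Pbx3 peak 3277, chr2:34219503-34219622, minus strand: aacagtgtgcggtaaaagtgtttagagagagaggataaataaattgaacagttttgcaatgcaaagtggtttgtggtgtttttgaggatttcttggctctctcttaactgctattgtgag
Meis1 peak 742, chr11:19012214-19012333, minus strand: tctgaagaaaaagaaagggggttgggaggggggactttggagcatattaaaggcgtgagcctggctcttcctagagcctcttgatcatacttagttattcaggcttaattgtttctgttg
Meis3 peak 5500, chr7:16720429-16720548, plus strand: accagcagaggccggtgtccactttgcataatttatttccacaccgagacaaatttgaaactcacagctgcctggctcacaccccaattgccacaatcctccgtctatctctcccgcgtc
One of these 4 stretches holds a word, the TGACAG of Meis2 peak 3531.

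Stretches in which at least 3 of the words fall within 150 bases were found in 3 of the 25 peaks (12%, with a 95% interval of 2.55 to 31.2% by the exact Clopper-Pearson method, which covers counting error only) and in 188 of all 6629 (2.84%). The 25 peaks are wider than the list, with a median of 1315 bp against 1017 bp, and per 100 kb of peak there were 8.12 such peaks (exact Poisson 95% interval 1.68 to 23.7) against 2.53, a value within the interval. These stretches are shown because they are the densest runs of Meis and Pbx words at these genes, again along the strand of the gene.
Meis2 peak 3531, chr2:115881608-115881703, minus strand: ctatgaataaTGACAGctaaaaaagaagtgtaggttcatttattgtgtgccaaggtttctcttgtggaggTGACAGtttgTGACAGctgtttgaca
Meis2 peak 3525, chr2:115551012-115551176, minus strand: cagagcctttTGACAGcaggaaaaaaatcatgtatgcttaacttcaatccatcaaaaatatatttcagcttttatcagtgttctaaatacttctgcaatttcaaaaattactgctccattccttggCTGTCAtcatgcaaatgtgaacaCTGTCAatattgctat
Pbx3 peak 3274, chr2:34131065-34131190, minus strand: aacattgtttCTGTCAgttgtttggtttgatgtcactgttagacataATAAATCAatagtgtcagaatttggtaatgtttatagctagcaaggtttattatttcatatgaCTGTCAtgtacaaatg
In the Pbx3 stretch the words comprise a pair of TGACAG cores and a TGATTTAT between them, and in both Meis2 stretches all 3 are TGACAG.

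The number of peaks differed widely among the 5 genes. Pbx3 had 10 peaks, Meis2 had 9, Meis1 had 5, Meis3 had 1 and Pbx2 had 0. Each window was 1 Mb long, since none of the gene bodies reached beyond it, and 2.59 peaks would be expected in it from its share of the assembled genome. Among the 22367 protein-coding genes the median was 1 peak, and 30.1% of the genes had none.

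Pbx3 and Meis2 had more peaks than the length of the window predicts. For Pbx3 the fold over expectation was 3.86 (adjusted p = 0.0131, binomial test, exact and one-sided, with Benjamini-Hochberg adjustment over all coding genes) and for Meis2 it was 3.47 (adjusted p = 0.0354, same exact test). Of the 5 genes 2 passed, and over all coding genes 4.09% did. The windows of neighbouring genes overlap and peaks cluster, which the test does not take into account. As many peaks as Pbx3 were found at 2.73% of coding genes, and as many as Meis2 at 4.11%.

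Meis1, with 1.93 times the expected number, did not pass (adjusted p = 0.684, exact binomial test), and 17.8% of coding genes had as many peaks. With the main window both calls were close to the threshold. When peaks were compared with the peak density of their own chromosome, which for chromosome 2 is above that of the genome, neither passed (Pbx3 fold 3.08, adjusted p = 0.0542; Meis2 fold 2.77, adjusted p = 0.127; exact binomial test). Joining peaks less than 5 kb apart left Pbx3 with 7 (adjusted p = 0.188, exact test), and narrowing the window to 250 kb on each side left Meis2 with 6 (adjusted p = 0.0697, exact test). The same narrowing left Pbx3 with 9 peaks and a lower adjusted p (fold 6.95, adjusted p = 0.00105, exact test).

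**Figure D1:**
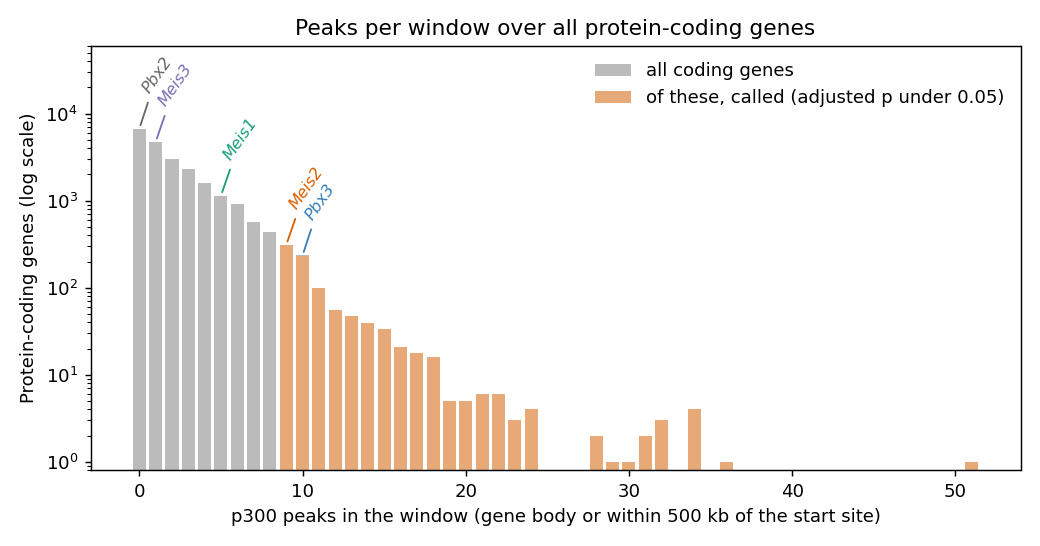
Number of protein-coding genes (vertical axis, log scale) by the number of p300 peaks in their window (horizontal axis), in grey for all 22367 genes and in orange for those that passed the exact binomial test. Meis2 and Pbx3, with 9 and 10 peaks, lie where the calls begin, and Meis3 and Pbx2 lie in the most common classes.

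No peak lay close to the limit of 500 kb, although wider and narrower windows gave other counts. With 250 kb Meis1, Meis2 and Pbx3 had 3, 6 and 9 peaks, and with 1 Mb they had 9, 13 and 13. The farthest peak inside a window lay 405.3 kb from the start site of Pbx3, 404.8 kb from that of Meis2 and 270.2 kb from that of Meis1. The nearest peaks left out lay 583.1, 564.9 and 604.6 kb away, all beyond the 3′ end of these genes.

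Peaks lay mostly on the side of the start site where the gene itself lies. Counted along the direction of transcription, 20 of the 25 were downstream of the start site, with 8 at Pbx3, 8 at Meis2, 4 at Meis1 and 0 at Meis3. Of the 20 peaks, 13 were inside the body of the gene and 7 beyond its end. The share at other coding genes was not counted, so this side is not shown to be particular to these genes. None of the 25 overlapped an annotated exon, which follows from the filter of the authors, who had discarded peaks at exons. For 15 of the 25 the start site of the Meis or Pbx gene was the nearest of any coding gene. For 5 peaks the midpoint was in an intron of another coding gene.

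**Figure D2:**
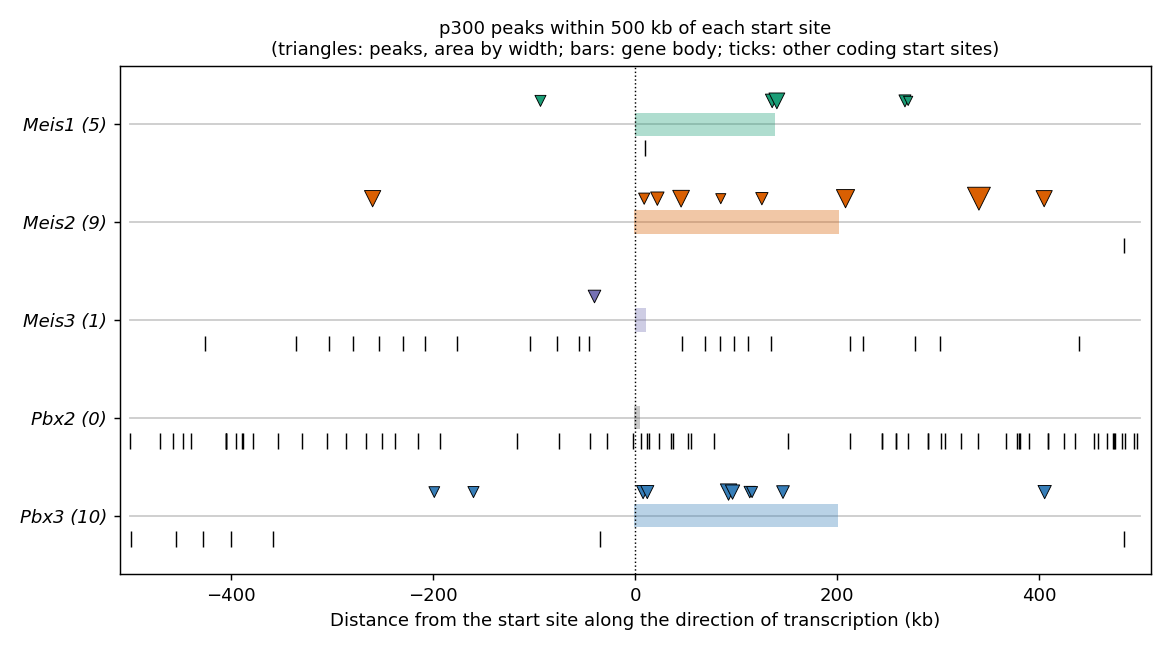
Position of each p300 peak (triangles, area by width) by its distance in kb from the start site along the direction of transcription, for the 5 genes with the number of peaks in brackets. The bars mark the gene body and the ticks the start sites of other coding genes, of which there are 67 around Pbx2 and 1 each around Meis1 and Meis2.

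Pbx3 (ENSMUSG00000038718) is transcribed from the minus strand of chromosome 2 and covers 201.7 kb (34026977 to 34228660), and 7 of its 10 peaks lay inside it. All 7 were in intron 2 of 8, which is 146.2 kb long, while introns 3 to 8 held 0. Of the 184321 distinct introns of coding genes, 6 held at least 7 peaks, and among the 730 introns of 100 to 200 kb there were 2. As many peaks inside the gene as Pbx3 were found in 0.587% of the 1873 coding genes with a body of 100 to 300 kb, where 67.5% had none.

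The peaks of this intron came mainly in pairs. Nearest to the start were peak 3277 (34218893 to 34220233, 1341 bp), 7.99 kb from the start site, and peak 3276 (34214779 to 34216093, 1315 bp) at 12.1 kb, which were separated by 2.80 kb. A second pair, peaks 3275 and 3274, lay at 92.5 and 96.5 kb with 2.15 kb between them, and was 2050 and 1569 bp wide. The third, peaks 3273 and 3272, lay at 113.6 and 115.8 kb, 1.27 kb apart. Peak 3271, at 146.4 kb, stood alone near the end of the intron, 29.5 kb from the next.

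The other 3 peaks of the Pbx3 window were outside the gene. Peaks 3278 and 3279, 159.8 and 198.6 kb upstream of the start site, were in introns 6 and 8 of Mapkap1, which encodes a subunit of the mTORC2 kinase complex and is transcribed away from Pbx3. Peak 3270 lay 204.7 kb past the end of Pbx3 and was nearer to the start site of Fam125b (78.8 kb). Since its start site is 35.1 kb away, Mapkap1 had the same 10 peaks in its own window, and Gapvd1 and Fam125b each shared 8 of them. From position alone these peaks could not be assigned to a single gene.

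Meis2 (ENSMUSG00000027210, minus strand, chromosome 2 from 115688800 to 115891575) had 5 of its 9 peaks inside a body of 202.8 kb. Peak 3531, the nearest, lay in intron 6 at 9.06 kb from the start site (115881238 to 115882201, 964 bp). Intron 7 held peaks 3530 and 3529, at 22.1 and 45.6 kb, and intron 8 held peaks 3528 and 3527, at 84.8 and 125.5 kb. The last large intron, number 9 of 11, is 52.9 kb long and held 0. Of the coding genes with a body of 100 to 300 kb, 1.33% had at least 5 peaks inside.

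Beyond the 3′ end of Meis2, peak 3526 followed at 6.27 kb (115681254 to 115683800, 2547 bp). Peaks 3525 and 3524 lay 138.3 and 202.8 kb past the end, in introns 10 and 5 of BC052040, a coding gene with a clone name whose own window held 11 peaks and shared 8 with Meis2. Upstream there was a single peak, 3532, at 259.6 kb, and the sequence between it and peak 3531 held no peak over 267.2 kb. Unlike those of Pbx3, the peaks of Meis2 stood apart, and the shortest gap between neighbours was 11.8 kb.

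Meis1 (ENSMUSG00000020160) is found on chromosome 11 (18780433 to 18918961, minus strand) and has the same number of exons as Meis2, 12. Its long introns 6 to 9 measure 22.9, 46.5, 35.9 and 20.04 kb and held 0 peaks, where introns 6 to 9 of Meis2 held 5. The difference in peaks between these genes was not tested. Of the 5 peaks in the Meis1 window, 4 formed pairs at and beyond the 3′ end. Peak 741 (18782319 to 18783728, 1410 bp) lay in the last intron, 135.7 kb from the start site, and peak 740 (18777423 to 18779339, 1917 bp) 2.05 kb past the end of the gene, with 2.98 kb between them.

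The other pair at Meis1, peaks 739 and 738, was 128.8 and 131.9 kb past the end and 2.30 kb apart, and peak 738 was among the narrowest of the list, where 4.42% of peaks were narrower than its 651 bp. The nearest peak to the start site was 742, 93.6 kb upstream (19011808 to 19012740, 933 bp). Gm16140, a coding model gene whose start site lies 9.59 kb downstream of that of Meis1, has the only other coding start site within 500 kb. Its window held the same 5 peaks.

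**Figure D3:**
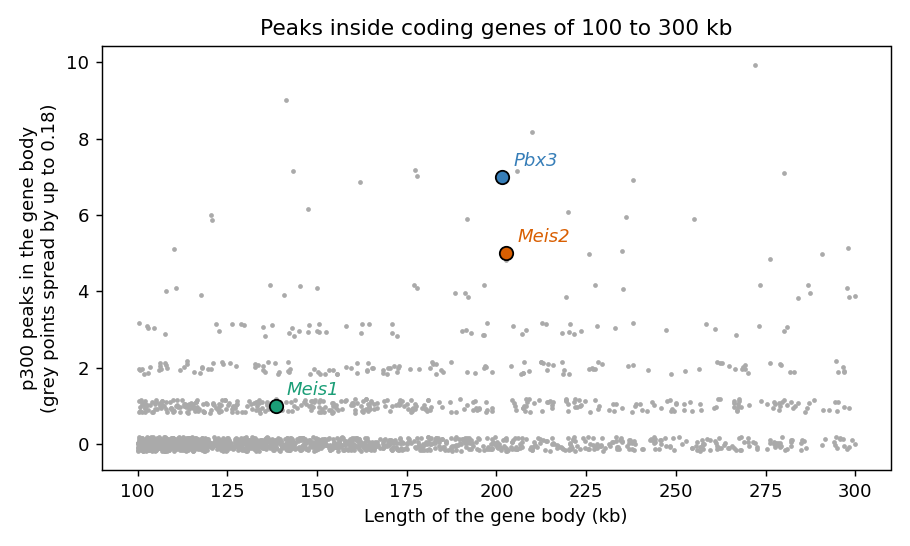
Number of p300 peaks inside the gene (vertical axis) by the length of the gene body in kb (horizontal axis), for the 1873 coding genes of 100 to 300 kb, each a grey point shifted slightly up or down for visibility. Pbx3 (7 peaks) and Meis2 (5) lie above nearly all genes of their length, and Meis1 (1) lies among the many genes with 1 peak.

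Meis3 (ENSMUSG00000041420, plus strand, chromosome 7 from 16760729 to 16771853) had a single peak. This peak, 5500 (16719878 to 16721101, 1224 bp), was 40.2 kb upstream of its start site and in intron 2 of Slc8a2, a sodium-calcium exchanger gene, whose start site was 4.84 kb away. Around Meis3 lie the start sites of 23 other coding genes, and 23 genes had this peak in their window. The next peaks in the list lay 812.4 kb downstream and 12043.6 kb upstream.

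Pbx2 (ENSMUSG00000034673, plus strand, chromosome 17 from 34728211 to 34734345), which lies among the genes of the major histocompatibility complex, had no peak in its window. The nearest were 1118.6 kb downstream and 2429.9 kb upstream. With 67 other coding start sites within 500 kb, Pbx2 had more neighbours than 99.3% of coding genes. The 6560 coding genes with at least 25 such neighbours had a mean of 1.60 peaks and 39.7% had none, against a mean of 2.90 in the 2410 genes with at most 4.

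The filter applied to the list removed much of the window of Pbx2. The authors had discarded peaks at exons and near start sites, and by the GENCODE annotation such bases made up 55.3% of this window, 26.6% for Meis3, 19.0% for Pbx3, 6.95% for Meis1 and 5.86% for Meis2. With these bases left out, 1.30 peaks would be expected for Pbx2 and 2.14 for Meis3. Peaks that were discarded are not in the list, and their part in the difference between the genes was not tested.

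Peaks at Meis2 were wide. Their widths were, in order along the gene from peak 3532 to peak 3524, 2034, 964, 1380, 2146, 780, 1159, 2547, 4023 and 2005 bp. The median was 2005 bp, against 1017 bp over all 6629 peaks, and 5 of the 9 were over 2 kb, as were 4.30% of all peaks. Peak 3525 (115548532 to 115552554, 4023 bp) was wider than 99.9% of the list. Among the 3982 coding genes with at least 5 peaks in the window, Meis2 had the highest median width, followed by 1996 bp. Without peak 3525 the median was 1692.5 bp, and Meis2 was then number 36, while the other genes kept their widest peaks.

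Widths at the other genes were closer to those of the list. At Pbx3 they ran from 896 to 2050 bp with a median of 1277 bp, which 9.59% of those genes reached, and at Meis1 from 651 to 1917 bp with a median of 1101 bp. Of the 25 peaks together, 17 were as wide as the median of the list or wider. Meis2, with the widest peaks, had none with a neighbour less than 5 kb away, whereas 6 of the 10 peaks of Pbx3 and 4 of the 5 of Meis1 had one.

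In base composition, Pbx3 stood lowest. The GC content of its peaks had a median of 38.4%, against 45.2% over all peaks, and ran from 32.6% at peak 3277 to 54.8% at peak 3270. Of the coding genes with at least 5 peaks, 1.88% had a median as low. The 7 peaks in intron 2 lay between 32.6 and 42.1%, and the intron as a whole had 37.3%. The whole Pbx3 window had 44.0%, above the median of its peaks. At Meis2 the median was 42.7% in a window of 40.5%, and at Meis1 it was 42.6% in a window of 41.1%.

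**Figure D4:**
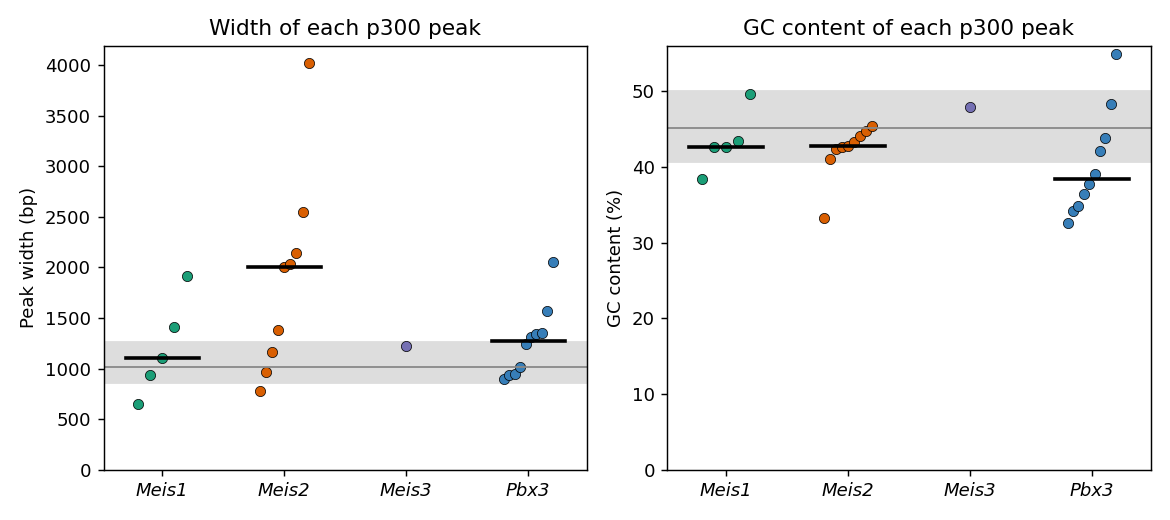
Width in bp (left) and GC content in percent (right) of each p300 peak at Meis1, Meis2, Meis3 and Pbx3, each point 1 peak, with the median as a black bar. The grey band spans the quartiles of all 6629 peaks and the grey line their median, and 5 peaks of Meis2 lie above 2 kb.

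Consensus words were searched on both strands over each whole peak to describe the sequence of these peaks. A match is a run of letters and not a site shown to be bound. The Meis core TGACAG occurred in 21 of the 25 peaks (84%, 95% interval 63.9 to 95.5%, exact Clopper-Pearson method), compared with 64.2% of all peaks. As these peaks are wide, the number per kb was also counted. It was 1.33 per kb (exact Poisson 95% interval 0.982 to 1.75) against 0.999 over all peaks, an interval that includes the value of the list. Without peak 3525, which alone holds 9, it was 1.22 per kb. In the middle 500 bp of each peak, tried only once the first values were known, it was 1.52 per kb (0.915 to 2.37). All peaks had 1.19 per kb there, which this interval includes. That is more than over their whole width, so the number per kb also depends on width.

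The composites were rare. TGATTGAC occurred in 1 of the 25 peaks, and in 3.39% of all peaks, and TGATTNAT in 5 of 25, or 20%, and 19.0% of all. The word TGATTGAC cannot start at the same base as TGATTNAT, while its last bases can begin a TGACAG, which was not the case here. All of these matches are shown along the strand that carries the composite, since they are the only ones at these genes.
Meis2 peak 3525, chr2:115550204-115550251, minus strand: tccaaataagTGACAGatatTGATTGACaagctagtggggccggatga
Meis2 peak 3530, chr2:115868535-115868582, minus strand: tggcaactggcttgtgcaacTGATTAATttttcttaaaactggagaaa
Meis2 peak 3526, chr2:115682599-115682646, minus strand: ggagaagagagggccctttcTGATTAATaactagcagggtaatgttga
Pbx3 peak 3274, chr2:34131116-34131163, plus strand: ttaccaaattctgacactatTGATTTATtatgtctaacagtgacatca
Pbx3 peak 3272, chr2:34111400-34111447, plus strand: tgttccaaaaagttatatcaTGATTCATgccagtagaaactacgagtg
Pbx3 peak 3270, chr2:33821832-33821879, plus strand: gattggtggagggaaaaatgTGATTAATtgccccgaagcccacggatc
In Meis2 peak 3525 a TGACAG lies 4 bases before the TGATTGAC on the same strand. No composite was found in the peaks of Meis1 or Meis3.

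The E-box CAGATG, a form bound by the Neurod and Neurog proneural factors, was the word with the lowest density in these peaks relative to the list. There were 0.650 per kb (exact Poisson 95% interval 0.416 to 0.967) at the Meis and Pbx genes and 1.28 per kb (1.25 to 1.30) in all peaks. In the middle 500 bp of each peak, which was tried only once the first values were known, they were 1.04 (0.554 to 1.78) and 1.70 per kb, and the interval then included the value of the list. For the E-box CAGCTG the values over whole peaks were 0.596 (0.373 to 0.902) and 0.805 per kb.

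TAATTA, a core bound by LIM and other homeodomains, stood at 0.921 per kb (0.638 to 1.29) against 0.700 in all peaks. TTGGCA, the core of Nfi sites, stood at 1.08 per kb (0.774 to 1.47) against 0.893. Both intervals include the value of the list. None of these differences was tested, since the peaks of 1 library are not replicates. The Poisson intervals cover counting error only and treat each word as independent, although words can lie close together in a peak. They were not adjusted for the number of words searched.

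**Figure D5:**
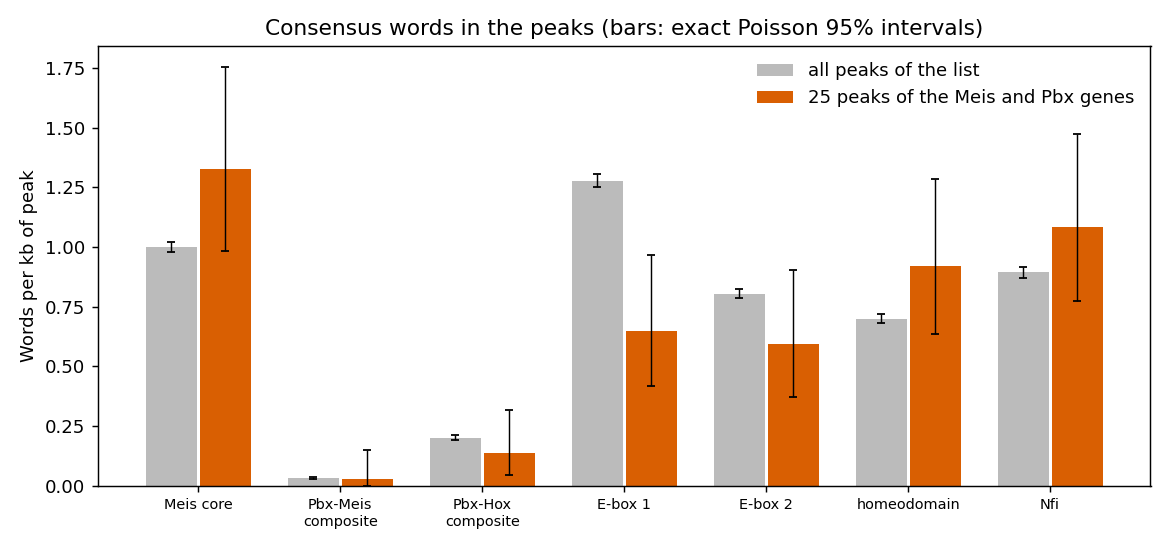
Consensus words per kb of peak (vertical axis) in all 6629 peaks (grey) and in the 25 peaks of the Meis and Pbx genes (orange), with exact Poisson 95% intervals. These cover counting error only, treat words as independent and are not a test. E-box 1 is CAGATG, at 1.28 and 0.650 per kb, and E-box 2 is CAGCTG, and the orange interval includes the grey value for every word plotted except E-box 1.

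Of 12 other TALE genes, 2 passed the window test (16.7%, against 4.09% of all coding genes), with a median of 1.5 peaks over the 12 against 1 over all coding genes. These were Pknox1, whose product pairs with Pbx proteins as Meis does, and Irx3, of the Iroquois family of patterning factors, each with 12 peaks (adjusted p = 0.00145, exact binomial test). At both, 0 of the peaks lay inside the gene. Within 500 kb lie 16 other coding start sites at Pknox1 and 2 at Irx3, and position alone could not assign these peaks to a single gene. Irx5, whose window overlaps that of Irx3, had 8 (adjusted p = 0.087, exact test), and Pknox2 had 6 (adjusted p = 0.383, exact test). Tgif2 and Tgif1, which encode co-repressors of TGF-beta signalling, had 3 and 2 peaks. Pbx4, Irx1, Irx2, Irx4 and Irx6 had 1 each and Mkx had 0. With the 5 Meis and Pbx genes, the TALE genes counted here ran from 0 to 12 peaks in windows of the same length.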

How the data were processed

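ChIP with an antibody to p300 and the matched input gave 1 library each, and the p300 peak list was used here. The authors aligned reads to mm9 with ELAND, kept those with a unique place, used MACS to call peaks over input (the submitters' processing notes name version 1.4) and discarded peaks at exons, near start sites or suspected of non-unique mapping. The deposited file holds chromosome, start, end and name, with no signal, so read depth per peak is unknown. The filter takes up more of a gene-dense window.

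Sequence was NCBIM37, the same assembly as mm9, with genes of GENCODE vM1. Each gene was given the start of the transcript whose coding sequence was longest, and a peak was placed by its midpoint. For each of 22367 protein-coding genes the count in its window was compared with the window's share of 2.56 Gb of assembled sequence by a binomial test, exact and one-sided, with Benjamini-Hochberg adjustment over all genes and a threshold of 0.05. Peak widths, GC content, introns and words were described without a test. The procedure was tested on simulated midpoints. Python 3.11.15, numpy 2.4.6, scipy 1.17.1, pysam 0.24.0 and matplotlib 3.10.9 were used.

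The genes, marker and TALE lists, words and 11 alternatives were chosen with earlier results of these data known. The genes named were the 5 members, 12 other TALE genes, the markers, the genes nearest a peak and up to 3 genes sharing most peaks, and the peaks named beyond the rule were chosen after their values were seen. Sequences were read from NCBIM37. Signal tracks, expression and the input were not used here.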

Additional observations from a re-analysis of the deposited data

How the results depend on the processing

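The fold of the window count was recomputed under 11 alternatives for the 5 genes, and 44 of the 55 values kept their direction and their side of the threshold (one-sided exact binomial test). For Pbx2 every value was 0. Any overlap with the window, 500 kb of the start site alone and the most upstream start repeated the main counts of every gene. The pooled count therefore says little of the calls, which only Meis2 and Pbx3 had. The call for Meis2 was lost with a window of 250 kb (fold 4.63), with a regulatory domain between coding genes (2.69) and with the density of its own chromosome (2.77). That for Pbx3 was lost with close peaks joined (2.93), with the wider peaks alone (those of 1017 bp or more, 4.62), with a domain between all genes (6.81, from 2 peaks) and with its own chromosome (3.08). Domains run from 5 kb upstream to 1 kb downstream of the start site and on to the neighbouring gene, by up to 1 Mb, so short domains hold few peaks. Pbx3 kept its call with domains between coding genes (fold 6.06, adjusted p = 0.00944, exact binomial test). Meis2 kept its call with domains between all genes (fold 7.18, adjusted p = 0.00609, exact binomial test). The direction turned, without a call, for Meis1 with domains between coding genes (0.849) and between all genes (0), and for Meis3 with both (4.30, from 1 peak in 0.0897 Mb). The remaining causes were not tested. The number of coding genes called was 914, and became 515 with peaks joined, 459 with wide peaks, 468 with 250 kb, 1537 with 1 Mb and 252 with domains between coding genes. With domains between all genes it was 249 of 37273 annotated genes of any type, which is not comparable. No paired analysis was possible because there is 1 library of each kind. With no depth in the list, the precision of a single peak is not known.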
